A study of Mus musculus with 4 samples.

Results

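Anxa4 and Anxa7, which encode 2 annexins, and Tc2n, which encodes a protein with tandem C2 domains, were measured in 2 populations of mouse testis cells sorted for surface ckit. They were taken by name: every probe set of the authors' deposited comparison table whose symbol or full gene name denoted 1 of the 3 genes, which found all 3 genes, of 227 that the table names, with 4 of its 374 listed probe sets, out of 45037 non-control probe sets on the arrays. Anxa4 and Anxa7 had 1 probe set each, and Tc2n had 2. That table lists only probe sets that the authors had selected for a difference of at least 2-fold between the same populations on the same arrays. The differences of the members are therefore a description, and where limma's calls are counted below, they stand beside the share over all probe sets and support nothing.

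The Sox2GFP+ckit+ and Sox2GFP+ckit- populations (ckit+ and ckit- cells below) came from the testes of mice 2 weeks old that carry a green fluorescent Sox2 reporter, on a 129SvJae/BL6 background. Both are reporter-positive and differ in staining for ckit, the receptor for stem cell factor, and the labels call the ckit- cells able, and the ckit+ cells unable, to restore damaged tubules. Each population was measured on 2 arrays, with 20 testes pooled into a sample, 20000 to 90000 sorted cells and 5 ng of RNA before amplification. How the reporter was built, and which testis cells carry it, is not given in the sources used here.

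Annexins are cytosolic proteins that bind membranes rich in acidic phospholipids when calcium rises, through a conserved core of repeated domains, while their N-terminal tails differ. Anxa4 (annexin A4) is known from epithelia, where it gathers on the plasma membrane and has roles in membrane repair. Anxa7 (annexin A7, synexin) was described as a protein that aggregates secretory granules. C2 domains are another fold that often brings proteins to membranes in a calcium-dependent way. Tc2n (tandem C2 domains, nuclear) carries a pair of them, as synaptotagmins do.

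The genes lie on 3 chromosomes, and RefSeq's table of promoters (GRCm38.p6) holds 2 windows for each of them. The 250 bases before a start are shown for the window of each gene that has more CpG dinucleotides, so that the gene higher in ckit- cells can be set beside the genes higher in ckit+ cells. Each runs 5′ to 3′ along the strand of its gene, and capitals mark matches on either strand to 1 of 6 motifs.
Anxa4, chr6:86793585-86793834, minus strand: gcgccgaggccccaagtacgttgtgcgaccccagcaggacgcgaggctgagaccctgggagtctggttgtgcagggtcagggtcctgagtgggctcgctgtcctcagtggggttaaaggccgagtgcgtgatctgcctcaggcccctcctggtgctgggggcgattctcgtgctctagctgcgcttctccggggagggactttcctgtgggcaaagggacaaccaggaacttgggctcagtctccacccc
Anxa7, chr14:20479942-20480191, minus strand: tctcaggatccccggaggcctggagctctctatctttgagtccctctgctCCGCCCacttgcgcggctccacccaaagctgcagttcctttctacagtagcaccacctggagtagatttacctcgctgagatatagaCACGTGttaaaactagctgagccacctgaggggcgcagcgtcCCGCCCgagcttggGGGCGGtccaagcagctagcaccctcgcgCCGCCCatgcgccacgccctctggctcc
Tc2n, chr12:101718524-101718773, minus strand: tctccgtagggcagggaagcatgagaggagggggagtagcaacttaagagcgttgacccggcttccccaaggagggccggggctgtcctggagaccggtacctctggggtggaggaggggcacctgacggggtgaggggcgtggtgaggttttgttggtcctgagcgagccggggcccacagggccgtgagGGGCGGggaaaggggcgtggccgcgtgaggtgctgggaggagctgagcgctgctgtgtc
The motifs searched were the GC box GGGCGG, the CCAAT box CCAAT, the TATA box TATAAA, the E-box CACGTG, the retinoic acid receptor motif AGGTCA and the ETS core CCGGAAG, none of which overlapped another in the windows shown. The Anxa7 window held 4 GC boxes and 1 E-box, with its first base 113 bases before the start. The Tc2n window held 1 GC box, with its first base 59 bases before the start, and the Anxa4 window held 0 matches to the 6 motifs. Matches depended on the window: those not shown held 1 GC box for Anxa7, 2 CCAAT boxes for Tc2n and 0 matches for Anxa4. The 2 Anxa7 windows overlap, and that GC box is the same site as the first one in the window shown. In windows of the same length over all genes (32851), a GC box was present in 32.7%, a CCAAT box in 33.8%, a TATA box in 12.4%, an E-box in 6.02%, the receptor motif in 14% and the ETS core in 6.91%. The GC content was 64.8% for Anxa4, 62.0% for Anxa7 and 68.0% for Tc2n, against a median of 52.4% over all windows. The choice by CpG favours a high GC content: the windows not shown had 42.0% for Anxa4, 42.4% for Anxa7 and 57.2% for Tc2n. These matches describe the letters of the windows, and nothing in the arrays measured binding there.

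Values are log2 expression values made by the authors with RMA. Array medians lay between 6.39 and 6.42 and lower quartiles between 4.93 and 5.04. The quartiles still split by population. Lower quartiles were 4.95 and 4.93 in ckit+ cells, against 5.01 and 5.04 in ckit- cells. Upper quartiles were 8.12 and 8.15 in ckit+ cells, against 8.05 and 7.99 in ckit- cells. Across probe sets, which are not independent replicates, the arrays correlated with r = 0.989 within ckit+ cells and 0.987 within ckit- cells, and with 0.980 to 0.984 between the populations. Kit, the gene of the sorted receptor, checked the labels: its brighter probe set read 9.68 and 9.62 in ckit+ cells, against 6.87 and 6.78 in ckit- cells. Kit's other probe set read 7.91 and 8.27 in ckit+ cells, against 6.22 and 5.44 in ckit- cells. The ± beside a mean is the SD of 2 arrays, and the ± beside a difference is the standard error from limma fitted over all non-control probe sets. The replicates are 2 pools per population, so the SD measures the spread between pools. Limma's standard error also borrows the spread of all probe sets.

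Anxa4 transcript was higher in ckit+ cells. Its probe set read 8.57 and 8.53 in ckit+ cells, against 6.99 and 6.99 in ckit- cells. The arrays of a population lay almost on top of each other and the populations did not overlap. The means were 8.55 ± 0.02 in ckit+ cells and 6.99 ± 0.005 in ckit- cells (SD over n = 2 arrays each), a 2.95-fold difference (log2 difference, ckit+ minus ckit-, 1.56 ± 0.16). The smallest gap between any ckit+ and any ckit- array was 1.54, while the arrays within a population were 0.03 apart in ckit+ cells and 0.007 apart in ckit- cells. The ckit- gap was smaller than that of most probe sets: 1.90% of all probe sets had a smaller one. Limma's standard error, which borrows the spread of all probe sets, was above the SD of these arrays. The level stood above 79.7% and 79.2% of all probe sets on the ckit+ arrays and above 60.0% and 60.2% on the ckit- arrays, so the transcript was above the array median in both populations.

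Anxa7, of the same family, differed in the other direction. Its probe set read 7.82 and 8.08 in ckit+ cells, against 9.26 and 9.20 in ckit- cells. The ckit- arrays were the higher ones and did not overlap with the ckit+ arrays. The means were 7.95 ± 0.18 in ckit+ cells and 9.23 ± 0.04 in ckit- cells (SD over n = 2 arrays each), making Anxa7 2.42-fold higher in ckit- cells (a log2 difference, ckit+ minus ckit-, -1.28 ± 0.17). The spread lay in the ckit+ arrays, which were 0.26 apart against 0.05 for the ckit- arrays, and the smallest gap between the populations was 1.12. On every array Anxa7 stood in the upper part of the distribution, above 71.6% and 74.3% of all probe sets in ckit+ cells and above 86.5% and 86.6% in ckit- cells. The transcript was thus well within the measured range in the population where it was lower. In sorted bulk samples, fewer cells with a transcript and less of it per cell cannot be told apart, which holds for each member.

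Tc2n was higher in ckit+ cells by both of its probe sets. The brighter one read 7.94 and 7.78 in ckit+ cells, against 6.17 and 5.70 in ckit- cells. Here the ckit- arrays were the more spread, 0.46 apart against 0.16 for the ckit+ arrays, and the smallest gap between the populations was 1.61. The means were 7.86 ± 0.11 in ckit+ cells and 5.94 ± 0.33 in ckit- cells (SD over n = 2 arrays each), a 3.78-fold difference (log2 difference 1.92 ± 0.21). Its level was above the array median in ckit+ cells, where 72.9% and 70.6% of all probe sets were lower, and below it in ckit- cells, where 45.6% and 36.2% were lower.

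The dimmer Tc2n probe set read 5.74 and 5.92 in ckit+ cells, against 4.95 and 4.64 in ckit- cells. The populations again did not overlap, but the smallest gap was 0.80 and all 4 arrays lay below their median. The ckit- mean of 4.79 ± 0.22 lay under the highest of the 4 lower quartiles (5.04), where signal and background may not be separable, so no fold is given and the size of its difference is not set against that of the brighter probe set. Which Tc2n transcripts each probe set reads is not given in the sources used here.

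**Figure D1:**
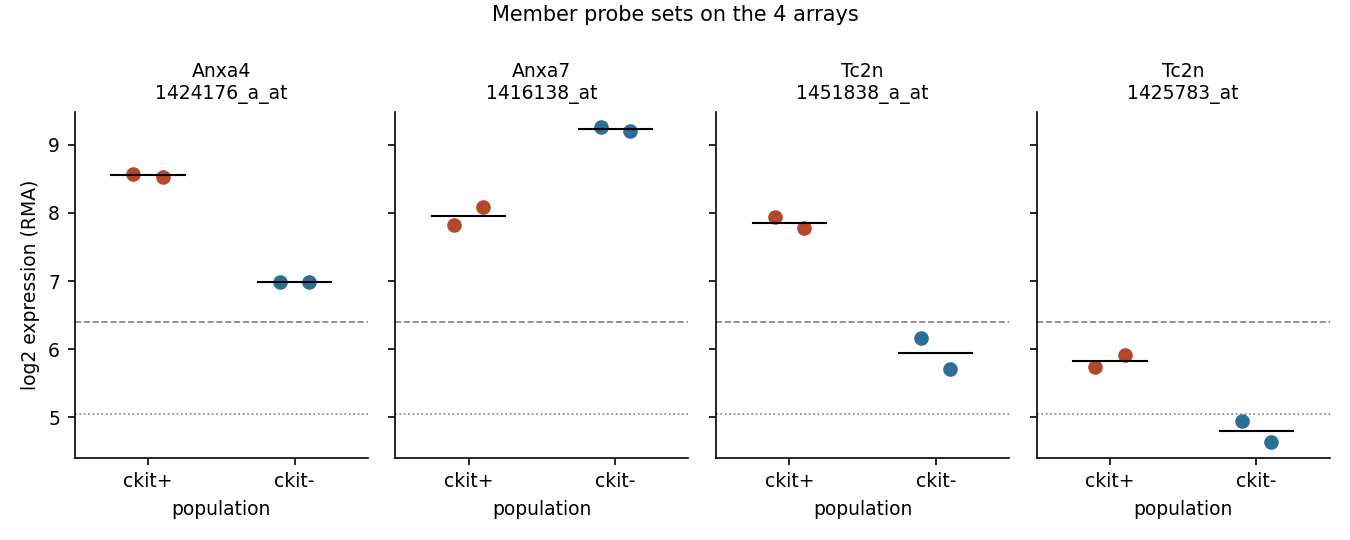
Log2 expression (RMA) of the 4 member probe sets in ckit+ cells (red, left) and ckit- cells (blue, right); points are arrays, black lines the means of 2 arrays, the dashed line the mean array median and the dotted line the highest lower quartile (5.04). Anxa4 and both Tc2n probe sets were higher on both ckit+ arrays and Anxa7 on both ckit- arrays, and only the dimmer Tc2n probe set had arrays under the dotted line.

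Ordered by the difference toward ckit+ cells over all 45037 non-control probe sets, the brighter Tc2n probe set was number 14 and Anxa4 number 39. Ordered toward ckit- cells, Anxa7 was number 167. In the fit over all probe sets, 2 of the 4 members had limma's adjusted p under 0.05, Anxa4 and the brighter Tc2n probe set, against 0.309% of all probe sets. All 4 had arrays that did not overlap between the populations, against 48.6% of all probe sets. The members came from a list chosen on this contrast, so neither count is evidence about them.

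**Figure D2:**
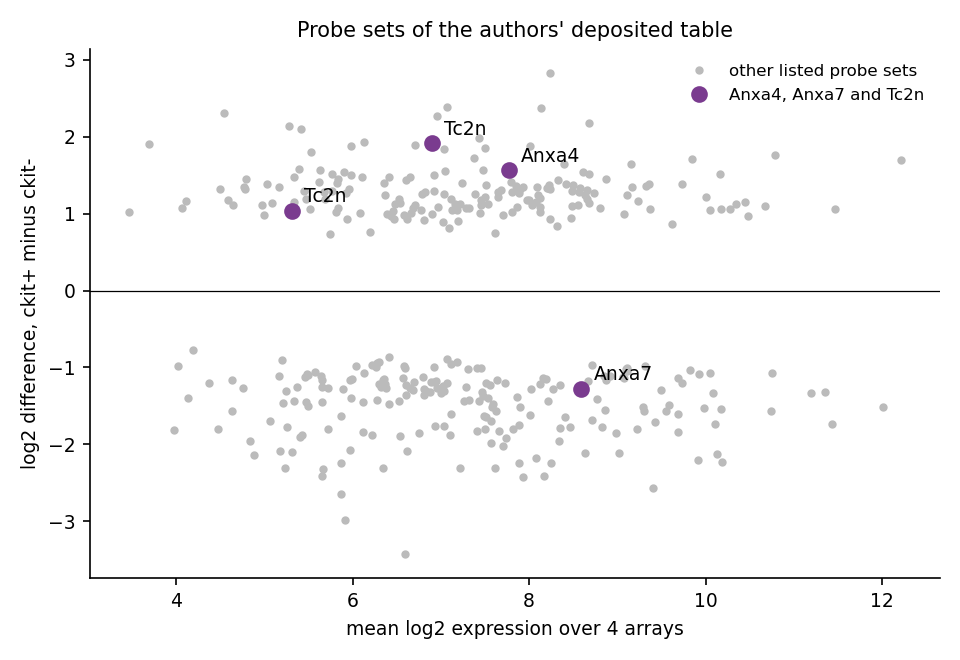
Log2 difference (ckit+ minus ckit-, y axis) against the mean log2 expression over the 4 arrays (x axis) for the 374 probe sets of the authors' deposited table, with the 4 member probe sets in purple. The gap around 0 comes from the authors' 2-fold selection; Anxa7 (-1.28) is the member below 0 and farthest right, and the dimmer Tc2n probe set, whose ckit- mean lay under 5.04, is the leftmost.

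The authors' deposited table, whose normalization is not given in the sources used here, held values close to these. For Anxa4 the authors' deposited table listed a ckit+ mean of 8.271 against a ckit- mean of 6.858, a ratio of 2.66, smaller than the 2.95-fold difference of the RMA values. For Anxa7 the authors' deposited table gave 7.881 in ckit+ and 9.085 in ckit- cells and a ratio of 2.3 in favour of ckit- cells. For the brighter Tc2n probe set the ratio in the authors' deposited table was 3.75 in favour of ckit+ cells. The dimmer one had a ckit- mean of 4.671 in the authors' deposited table, low there too, and its ratio is not used. Among the 178 probe sets higher in ckit+ cells in the authors' deposited table, the ratio placed the brighter Tc2n probe set at 12 and Anxa4 at 43, and Anxa7 stood at 132 among the 196 higher in ckit- cells.

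The other genes of these families were followed through 4 lists with 119 genes: annexins, S100 proteins and other annexin partners, proteins with tandem C2 domains, and signalling enzymes with a C2 domain. The authors' deposited table named 6 of them, of which 3 were the members, so the remaining 113 were not analysed here. Of the 12 annexins only Anxa4 and Anxa7 were named, and of the 12 partners 0. Limma's adjusted p was under 0.05 for 2 of the 6 named genes, both higher in ckit+ cells (background 0.115% of all probe sets), and for 0 of the 3 that were higher in ckit- cells (background 0.193%, 3 of 3 at an unadjusted p under 0.05, as were 7077 of all 45037 probe sets). The median absolute log2 difference of the 6 was 1.20, against 0.21 over all non-control probe sets and 1.30 over the listed ones. The 6 are named only because the authors selected them for a difference on these arrays, so these counts and this median are no evidence about the families.

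The 3 other named genes also divided by direction. Rims1, a scaffold of the presynaptic active zone with C2 domains, read 6.80 and 7.15 in ckit+ cells, against 6.10 and 5.79 in ckit- cells, a log2 difference of 1.03 ± 0.20. Plcg2, a phospholipase C that makes the second messengers inositol trisphosphate and diacylglycerol, read 8.82 and 8.83 in ckit+ cells, against 9.88 and 9.74 in ckit- cells, a log2 difference of -0.98 ± 0.16. Rasa3, a GTPase-activating protein for Ras and Rap with tandem C2 domains, read 8.37 and 8.34 in ckit+ cells, against 9.44 and 9.50 in ckit- cells, a log2 difference of -1.12 ± 0.16. None of the 3 had limma's adjusted p under 0.05 over all probe sets (0.118 for Rims1, 0.083 for Plcg2 and 0.060 for Rasa3). The named C2-domain genes thus included Tc2n and Rims1 with higher values in ckit+ cells and Plcg2 and Rasa3 with higher values in ckit- cells.

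For each member, the 3 named genes with the most similar pattern were found by the root mean square distance of values centred on each probe set's own mean, over 4 arrays and among the 224 other named genes. All of these were selected by the authors for a difference on the same arrays, so the distances are given as a description. Nearest to Anxa4 was Slc27a2, a fatty acid transporter and acyl-CoA synthetase (distance 0.032), which read 9.44 and 9.33 in ckit+ cells, against 7.85 and 7.84 in ckit- cells. It was followed by Rbp4, a retinol carrier (0.083), and Wfs1, a membrane protein of the endoplasmic reticulum (0.092). Anxa4, Slc27a2 and Wfs1 (7.53 and 7.54 in ckit- cells) each had a near-equal pair of ckit- arrays, a likeness that the distance itself favours.

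Nearest to Anxa7 was the forkhead transcription factor gene Foxf1 (distance 0.036), with 5.90 and 6.13 in ckit+ cells, against 7.35 and 7.20 in ckit- cells. Pitpnc1, a phosphatidylinositol transfer protein (0.052), and Mdm1, a microtubule-binding protein of centrioles (0.059), came next, and all 3 read lower on the first than on the second ckit+ array, as Anxa7 did. Nearest to the brighter Tc2n probe set was Mbnl3, a muscleblind RNA-binding protein (0.073), with 8.52 and 8.33 in ckit+ cells, against 6.71 and 6.43 in ckit- cells. Crabp1, a retinoic acid-binding protein (0.096), and Nmral1, an NADPH-binding protein (0.160), followed. Nmral1 read 4.73 and 4.53 in ckit- cells, under the highest lower quartile (5.04), where signal and background may not be separable. The 3 genes nearest to Tc2n were thus farther from it than the 3 nearest to Anxa7 were from Anxa7.

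**Figure D3:**
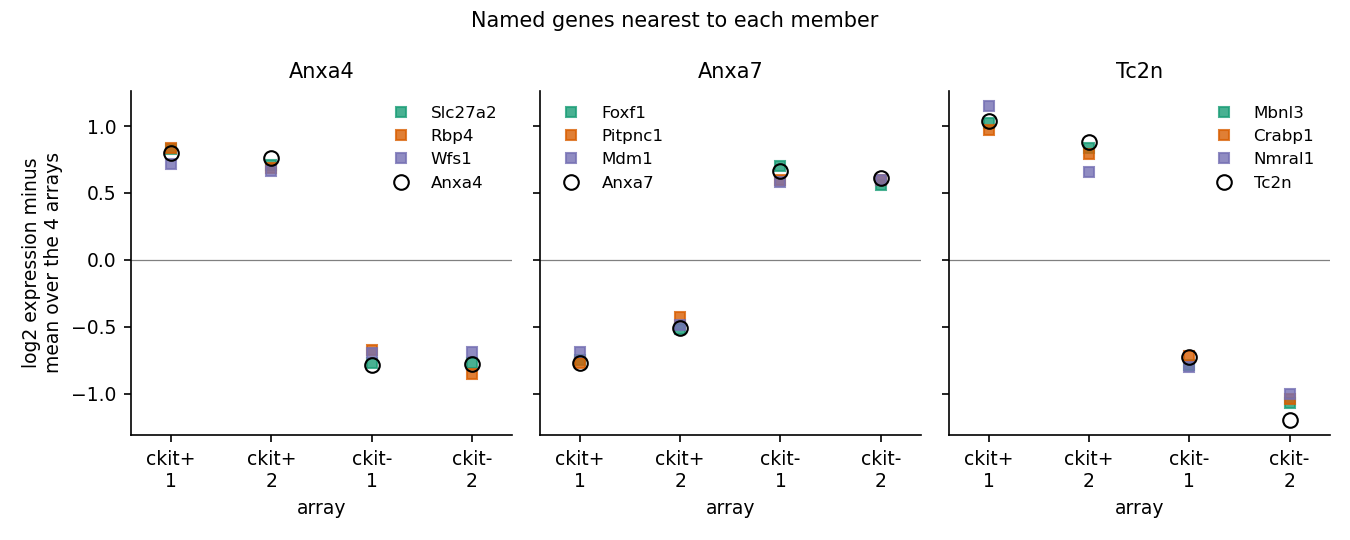
Log2 expression minus the mean over the 4 arrays (y axis) on each array (x axis) for Anxa4, Anxa7 and the brighter Tc2n probe set (open circles) and the 3 named genes nearest to each (squares). Anxa4 and its neighbours were above their mean in ckit+ cells, Anxa7 and its neighbours in ckit- cells, and Tc2n had its lowest value on the second ckit- array.

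Markers of other cell types were followed where the deposited table names them. Of 6 endothelial markers 1 was named, Plvap, which read 5.40 and 5.39 in ckit+ cells, against 6.77 and 6.91 in ckit- cells, the direction of Anxa7. Of 13 markers of undifferentiated spermatogonia 6 were named, all higher in ckit- cells, and of 7 of differentiating spermatogonia 4 were named, all higher in ckit+ cells. These 4 include Kit, the gene of the sorted receptor. All named markers come from a table selected for a difference on this contrast, so their shared directions are no evidence about the populations. Markers of Sertoli, Leydig, peritubular myoid and mast cells and of macrophages and leukocytes had 0 named genes and were not analysed here. The 3′ minus 5′ signal of the GAPDH control probe sets came to 2.45 and 2.59 for the ckit+ arrays, against 2.68 and 2.61 for the ckit- arrays. For beta-actin it was 0.02 and -0.27 in ckit+ cells, against -0.11 and -0.19 in ckit- cells. The beta-actin control thus overlapped between the populations, while the GAPDH control did not and was higher on both ckit- arrays. The part of these cell types and of RNA quality in the levels of Anxa4, Anxa7 and Tc2n was not tested.

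The differences kept their direction when the values were processed in other ways, though most of these ways could not have turned it. Over the 9 alternatives run for each gene, the log2 difference lay between 1.41 and 1.58 for Anxa4, between -1.41 and -1.15 for Anxa7, and between 1.48 and 2.15 for Tc2n, where the lowest value averages in the dimmer probe set. The replicate block cannot move a difference in this balanced design, nor can averaging probe sets for Anxa4 and Anxa7, which have 1 each. The arrays of the populations do not overlap for these genes, so leaving out an array could not turn a sign. Nor could the authors' deposited means, since the members come from that table, where all 374 probe sets have the sign of the RMA values. Median centring moves a difference only by the small gaps between array medians (6.39 to 6.42). The kept directions are therefore a description.

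**Figure D4:**
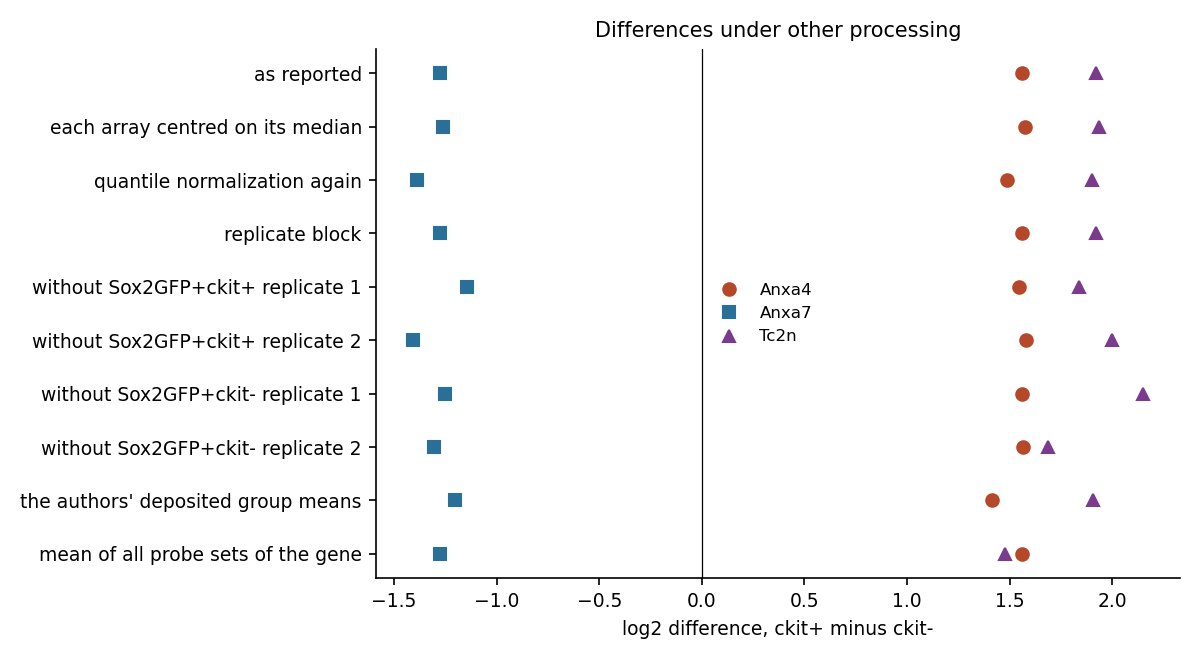
Log2 difference (ckit+ minus ckit-, x axis) of Anxa4 (circles), Anxa7 (squares) and Tc2n (triangles) as reported and under each of 9 alternatives (rows). Anxa4 and Tc2n stayed above 1.4 and Anxa7 below -1.1 in every row.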

How the data were processed

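RNA of the 4 samples was measured on 1-colour arrays with 45101 probe sets, 64 of them controls. The authors' deposited log2 values were made with RMA, per the submitters' processing notes, and were not normalized again. RMA makes the distributions of the arrays much alike, though their quartiles still differed slightly by population, so a shift of all transcripts would not be visible. A second deposited table holds log2 group means with standard errors, a ratio (linear fold), and the p-value before and after adjustment for 374 probe sets. Per the file headers, these came from a t-test adjusted by Benjamini and Hochberg for 605 tests, at 2-fold and up. Its direction "Up" means higher in ckit- cells.

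Differences (ckit+ minus ckit-) and standard errors came from limma 3.58.1 under R 4.3.3 (lmFit, eBayes, no covariates, Benjamini-Hochberg over 45037 probe sets, threshold 0.05). The fit was tested on simulated data with less noise than these arrays and shifts larger than any member difference. That test therefore does not gauge the calls made here. Precision is limited by the 4 arrays, since exact permutation of 2 against 2 cannot go below p = 0.333. Names came from the deposited table alone: 258 of its probe sets were named (227 genes), by accession, symbol or full gene name, through RefSeq (GRCm38.p6). The brightest probe set stood for a gene with several.

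Genes named were the members, every listed family gene that the table names, the 3 nearest patterns of each member, and Kit. Plvap, an endothelial marker, was named as the count of 1 required. Members, lists and motifs were chosen with earlier results of these data known.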

Additional observations from a re-analysis of the deposited data

How the results depend on the processing

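With the replicate number as a replicate block the log2 differences are 1.56 (Anxa4), -1.28 (Anxa7) and 1.92 (Tc2n), as the balanced design fixes. Deviations of the arrays with the same number correlated at 0.26 over probe sets, yet with 2 pairs and no word in the labels on what is shared, the block was kept as an alternative. The Anxa4 difference became 1.49 with renewed quantile normalization and 1.41 from the authors' deposited table, and the Tc2n difference 1.48 as the mean of both probe sets, which includes the dimmer one. With 1 array left out the differences ranged from 1.55 to 1.58 (Anxa4), -1.41 to -1.15 (Anxa7) and 1.69 to 2.15 (Tc2n); the lone array is then assumed to vary like the other population.

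Limma's calls were less stable. Dim probe sets below are those whose mean in their higher population was not above the median of all values. Leaving them out this way favours probe sets that differ, so the counts without them support nothing. The brighter Tc2n probe set and Rims1 passed only through ckit+ cells (means 7.86 and 6.97), with ckit- means of 5.94 for both. Of all probe sets 139 were called, against 554 with the block, 419 with an intensity trend, 199 without dim probe sets, 133 with renewed quantile normalization, 142 with median centring and 1 by the methods' t-test adjusted over all 45037 probe sets. The authors adjusted for fewer tests, as their header says, and the authors' deposited table gives the 4 members t-test adjusted p-values of 0.018 to 0.042. The members were taken from that same table, so these p-values are no evidence about them. Of the family genes 2 were called, against 5 with the block, 5 with the trend, 4 without dim probe sets and 0 by the methods' t-test with that same wide adjustment. Of the 4 member probe sets 2 were called, 3 with the block, the trend or renewed quantile normalization, 3 of 3 without dim probe sets (the dimmer Tc2n probe set drops out), and 0 by the methods' t-test with that same wide adjustment. That test had 5346 probe sets, 6 of the 6 named family genes and 4 of the 4 members at an unadjusted p under 0.05. With any 1 array left out, limma called 0 of all probe sets, 0 of the family genes and 0 of the members, with 4513 to 6422 probe sets, 6 of the 6 family genes and 4 of the 4 members at an unadjusted p under 0.05. Fewer arrays leave fewer degrees of freedom; the cause of the other gaps was not tested.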
